A study of Homo sapiens with 6 samples.

Results

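The first gap phase (G1) of the cell cycle is governed by a small family of genes, of which 10 were described here. They encode the D-type cyclins CCND1, CCND2 and CCND3, the E-type cyclins CCNE1 and CCNE2, the kinases CDK4, CDK6 and CDK2, and the inhibitors CDKN1A and CDKN1B. The members were taken by their gene symbol from the 23228 symbols in the count tables, and all 10 were listed there. MDA-MB-231 cells were used, a human line from a triple negative breast cancer (TNBC), the subtype without estrogen receptor, progesterone receptor and HER2 overexpression. Transcripts were sequenced in 3 control replicates, which carried a stable non-targeted shRNA, and in 3 PELP1-KD replicates, which carried a stable shRNA against PELP1. PELP1 is a coregulator of nuclear receptors that also takes part in ribosome assembly. Both groups were made with lentiviral particles, selected with puromycin and grown in RPMI medium with 10% serum. The knockdown rests on a single shRNA, and the sources do not say whether the replicates came from separately infected cultures, so the p-values measure the spread between these samples, which may be technical. The comparison addressed which transcripts differ when PELP1 is reduced in these cells.

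Entry into the cell cycle is controlled by kinases that are active only when bound to a cyclin. D-type cyclins are made in response to growth factors and bind CDK4 or CDK6, E-type cyclins appear later and bind CDK2, and both kinds of complex phosphorylate the retinoblastoma protein RB1. Phosphorylated RB1 releases E2F transcription factors, which turn on the genes of DNA synthesis and CCNE1 and CCNE2 themselves. The inhibitor p21, encoded by CDKN1A and best known for its rise after DNA damage, and the inhibitor p27, encoded by CDKN1B, block CDK2 complexes. D-type complexes can hold both inhibitors without losing all activity. In breast cancer, CCND1 is the D-type cyclin most often overproduced, and the partner kinases of D-type cyclins are drug targets.

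CCND3 and CDKN1A rose in PELP1-KD cells, CCND1 fell, and the kinases and E-type cyclins differed by little. Promoter sequences are shown for the 2 members that rose and for CDK4, whose promoter holds the sequence bound by c-Myc, a transcription factor that the study followed. Sequences come from the RefSeq promoter table on GRCh38.p14, from which 6 of the 10 members were matched. The table held no window for CCND1, CCND2 and CDK2, and CCNE2 was left out of the matching. Each sequence is the 250 bases before an annotated start, written 5′ to 3′ on the strand of the gene. Capitals mark GC boxes (GGGCGG or CCGCCC, the sequence bound by SP1) in CDKN1A and CCND3 and E-boxes (CACGTG, the same on both strands) in CDK4, where GC boxes are left in lower case.
CDKN1A (chr6:36678464-36678713, plus strand): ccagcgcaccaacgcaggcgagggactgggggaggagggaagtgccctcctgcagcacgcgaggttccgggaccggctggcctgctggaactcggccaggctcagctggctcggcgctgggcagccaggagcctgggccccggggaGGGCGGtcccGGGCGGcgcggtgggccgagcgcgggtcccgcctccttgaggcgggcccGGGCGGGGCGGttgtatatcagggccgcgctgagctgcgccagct
CCND3 (chr6:41941809-41942058, minus strand, the start of transcript NM_001760.4): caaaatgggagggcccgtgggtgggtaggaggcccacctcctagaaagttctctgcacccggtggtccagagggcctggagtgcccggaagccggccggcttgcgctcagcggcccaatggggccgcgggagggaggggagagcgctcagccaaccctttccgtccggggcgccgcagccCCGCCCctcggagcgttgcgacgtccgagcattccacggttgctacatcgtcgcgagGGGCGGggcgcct
CDK4 (chr12:57752311-57752560, minus strand): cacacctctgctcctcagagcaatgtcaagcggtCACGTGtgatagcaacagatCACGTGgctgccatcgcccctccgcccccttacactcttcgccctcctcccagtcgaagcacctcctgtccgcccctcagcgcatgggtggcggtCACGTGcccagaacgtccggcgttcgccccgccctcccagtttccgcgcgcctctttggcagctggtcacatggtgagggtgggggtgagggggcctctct

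The CDKN1A stretch held 4 GC boxes, of which the last pair overlaps by 1 base, and the CCND3 stretch held 2. A GC box was found in 44.95% of the 35116 windows of 300 bases in the table, so its presence is common. The CDK4 stretch held 3 E-boxes. At least 1 E-box was found in 7.256% of all windows and 3 or more in 33 windows (0.09397%). These matches describe the letters and not binding, and no binding was measured here.

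The knockdown was checked first. PELP1 had 57.24, 56.06 and 60.21 CPM (counts scaled to library size, with TMM factors) in the control, and 28.58, 29.86 and 30.25 CPM in the PELP1-KD group. Here and below, values of a group are given in the order of replicates 1, 2 and 3. The groups did not overlap. Its log2FC was -0.97 (SE 0.055, adjusted p-value 1.48e-11). Every log2FC compares PELP1-KD with control. Adjusted p-values are from the quasi-likelihood test of edgeR, adjusted by Benjamini-Hochberg over 12796 tested genes. The counts on genes ranged from 17304864 to 23132102 per replicate, so 3 counts, taken as the floor of detection, stood for 0.130 to 0.173 CPM. Markers expected of a mesenchymal-like TNBC line were looked up next. The 6 mesenchymal markers (VIM, FN1, SPARC, CD44, AXL and ZEB1) were all detected, with 2 higher and 4 lower past the test. They summed to 5059 to 5164 CPM in the control and 4334 to 4396 CPM in PELP1-KD replicates. Most of the control sum came from VIM (mean 2221 CPM), AXL (1438 CPM) and CD44 (1209 CPM). FN1 had a control mean of 172 CPM, ZEB1 78.9 CPM and SPARC only 5.02 CPM. The estrogen receptor gene ESR1 had at most 1 count and the progesterone receptor gene PGR at most 2 counts in any replicate, while ERBB2, which encodes HER2, had 113 CPM in control cells. Of the 8 epithelial markers, 4 were lower, and the defining gene CDH1 had at most 4 counts. The 8 summed to 772 to 800.2 CPM in the control and 663 to 674 CPM in PELP1-KD replicates. The epithelial keratins KRT8 (284 CPM) and KRT18 (281 CPM) were above FN1, ZEB1 and SPARC in control cells. Of 7 markers of immune, endothelial and stromal cells, PTPRC was at 0 in every replicate, and the list summed to 122 to 127 CPM in the control and 108 to 117 CPM in PELP1-KD replicates, with COL1A1 higher and CD68 lower. The part of these markers in the results below was not tested.

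Of the 10 members, 9 had enough counts to be tested, and CCND2 did not. At an adjusted p-value below 0.05, 2 of the 9 (22.2%) were higher in PELP1-KD cells, where 22.7% of all tested genes were, and 1 of the 9 (11.1%) was lower, where 24.2% of all tested genes were. The groups did not overlap in 5 of the 9, against 55.0% of all tested genes. The largest log2FC among the tested members was 0.69, so none was called beyond 1, as 3.24% of all tested genes were. These shares are close to or below those of all genes, so the count of members called is not a result about the family, and what follows concerns single genes. The median log2FC was 0.03 over the 9 members and 0.0014 over all tested genes. With scaling by library totals alone, 4 members were called higher and 1 lower, where 29.8% of all tested genes were higher and 18.9% lower.

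**Figure D1:**
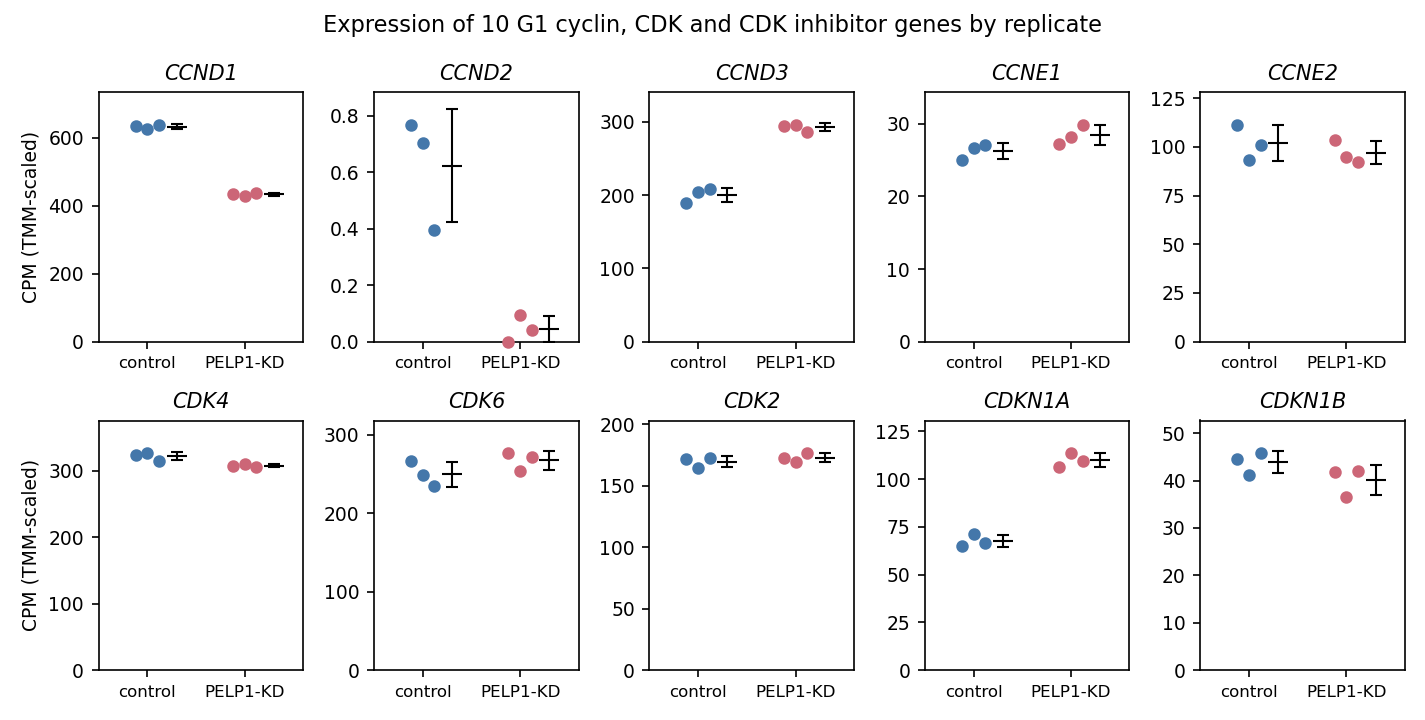
Expression of the 10 members in CPM, each on its own axis from 0, with 1 point per replicate (blue, control; red, PELP1-KD) and the mean ± SD (n = 3) in black. The control and PELP1-KD points stand clearly apart in CCND1, CCND2, CCND3 and CDKN1A, and lie close together or overlap in the other 6 genes.

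CCND1 and CCND3 moved in opposite directions. CCND1, the D-type cyclin with the highest level in control cells, lies on chromosome 11 (GRCh38 69641087 to 69654474, plus strand). In the control its CPM was 633.8, 626.3 and 638.8, and under PELP1-KD it was 434.8, 429.1 and 436.7. Every PELP1-KD replicate was far below every control replicate, and the replicates of a group lay close together. CCND1 fell from a mean of 633 ± 6.32 CPM (SD, n = 3) to 433.5 ± 3.97 CPM (SD, n = 3), with a log2FC of -0.55 (SE 0.027, adjusted p-value 1.74e-12). Its p-value ranked 65 of all tested genes, and its log2FC ranked 593 from the lowest. In bulk RNA, a lower level in each cell and a smaller share of cells that express the gene cannot be told apart.

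CCND3, the D-type cyclin best known from lymphoid cells and from many adult tissues, lies on chromosome 6 (GRCh38 41934933 to 42050357, minus strand). In the control its CPM was 189.6, 203.8 and 208.0, and under PELP1-KD it was 294.9, 296.4 and 286.2. The groups did not overlap. CCND3 rose from a mean of 200.5 ± 9.62 CPM (SD, n = 3) to 292.5 ± 5.51 CPM (SD, n = 3), with a log2FC of 0.54 (SE 0.036, adjusted p-value 1.74e-10). On the log2 scale the rise of CCND3 and the fall of CCND1 were of nearly the same size, with 95% intervals of 0.47 to 0.62 and of -0.60 to -0.49.

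The ratio of both genes within a replicate does not depend on how libraries are scaled. It was chosen after the values were seen. For every 100 counts on CCND1, there were 29.92, 32.54 and 32.56 counts on CCND3 in the control, against 67.83, 69.07 and 65.54 under PELP1-KD. The mean was 31.7 ± 1.52 (SD, n = 3) in control and 67.5 ± 1.79 (SD, n = 3) in PELP1-KD cells. The two-sided exact permutation test gave p = 0.1, which is the lowest that a design of 3 against 3 can reach. Together the D-type genes had 834 ± 11.9 CPM (SD, n = 3) in the control, against 726 ± 3.46 CPM (SD, n = 3) under PELP1-KD, with groups that did not overlap (two-sided exact permutation test, p = 0.1).

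Levels of different genes were compared per length, as RPKM (CPM per kilobase of exon). With the union of all annotated exons as the length, CCND3 made up 20.9% ± 0.798 (SD, n = 3) of the D-type RPKM in control cells and 36.0% ± 0.613 (SD, n = 3) in PELP1-KD cells. This share depends on the length, since the annotated exons of CCND3 add up to 5802 bases and its longest transcript is 2394 bases. With the longest transcript of each gene as the length, the share was 36.3% ± 1.12 (SD, n = 3) and 54.8% ± 0.660 (SD, n = 3), so that CCND3 was below CCND1 in PELP1-KD cells under the first length and above it under the other. The summed D-type RPKM was 165.7 in control and 140.2 in PELP1-KD cells with the union of exons, and 230.8 and 222.8 with the longest transcripts. Under both lengths the share of CCND3 was higher in every PELP1-KD replicate than in any control replicate.

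**Figure D2:**
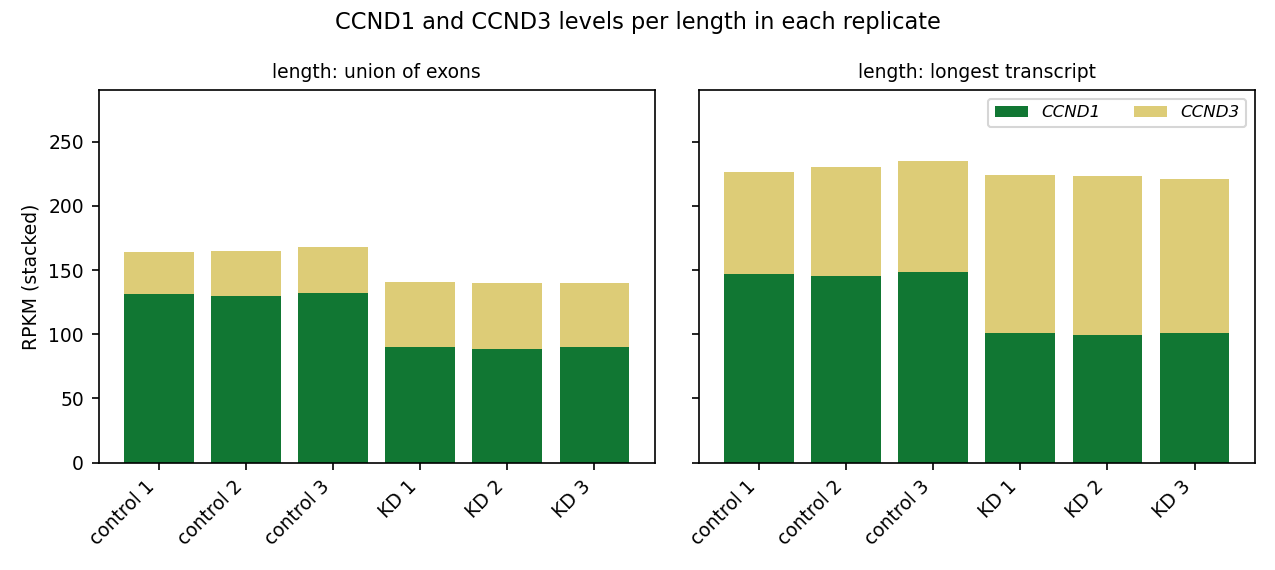
Stacked RPKM of CCND1 (green) and CCND3 (yellow) in each replicate, with the union of exons (left) or the longest transcript (right) as gene length. The green part is shorter and the yellow part taller in all 3 PELP1-KD replicates under both lengths, while the height of the whole bar differs between the groups mainly under the union of exons. CCND2 is too low to be drawn.

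CCND2, the third D-type cyclin, lies on chromosome 12 (GRCh38 4273772 to 4305350, plus strand) and was close to the floor of detection. It was hit by 13, 16 and 7 reads in the control, against 0, 2 and 1 under PELP1-KD. The groups did not overlap. Summed over the replicates there were 36 counts in control and 3 in PELP1-KD cells, and the control level was 13.5-fold the PELP1-KD level, with an exact 95% interval of 4.25 to 68.3 that covers counting error alone. The low-count filter left CCND2 untested. Without that filter, edgeR's quasi-likelihood test gave an adjusted p-value of 2.27e-06. That fit gave far smaller adjusted p-values for large changes, such as 4.48e-68 for CCND1 against 1.74e-12 with the filter. The value for CCND2 is therefore not comparable with the others given here. At 0.622 ± 0.200 CPM (SD, n = 3) in control cells, CCND2 was a trace of the counted D-type cyclin message in both groups. In the annotation, the protein-coding gene AC008012.1 overlaps CCND2 on the same strand by 31579 bases. The part of this overlap in the counts was not tested.

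The E-type cyclins did not pass the test. CCNE1 had 25.01, 26.62 and 27.15 CPM in the control group, against 27.29, 28.17 and 29.91 CPM under PELP1-KD. The groups did not overlap, but they nearly touched. The log2FC of CCNE1 was 0.12 (95% interval -0.02 to 0.25, adjusted p-value 0.146), and it passed with libraries scaled by their totals alone, at a log2FC of 0.17 (adjusted p-value 0.0405). CCNE2 had 111.5, 93.42 and 101.1 CPM in the control group, against 103.6, 94.97 and 92.37 CPM under PELP1-KD. These groups overlapped, and the log2FC of CCNE2 was -0.07 (95% interval -0.19 to 0.05, adjusted p-value 0.317). It lay between -0.00428, without control replicate 1, and -0.135, without control replicate 2. The counts on CCNE1 per 100 counts on CCNE2 were 25.9 ± 3.13 (SD, n = 3) in control cells and 29.5 ± 3.03 (SD, n = 3) in PELP1-KD cells, and the groups overlapped (two-sided exact permutation test, p = 0.3).

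The 3 kinases also stayed short of the threshold. CDK4, a partner of the D-type cyclins, had 324.1, 326.3 and 314.8 CPM in the control group, against 306.5, 309.7 and 305.5 CPM under PELP1-KD. The PELP1-KD values lay just below the control values, a log2FC of -0.07 (95% interval -0.13 to -0.0034, adjusted p-value 0.0774). MYC, named here although it is outside the rule for named genes, was 0.09 higher on the log2 scale (SE 0.035, adjusted p-value 0.0377). That call was lost in DESeq2 (adjusted p-value 0.0551) and without any 1 of control replicates 1, 2 and 3 or PELP1-KD replicates 1 and 2 (adjusted p-values between 0.0602 and 0.135). The paper reported less c-Myc protein on western blots of PELP1-KD cells and lower c-Myc target gene sets. Neither of these measures the RNA of MYC.

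CDK6, the other partner of the D-type cyclins, had 266.1, 248.9 and 234.2 CPM in the control group, against 276.6, 253.6 and 271.5 CPM under PELP1-KD. The groups overlapped, because control replicate 1 was above PELP1-KD replicate 2. The log2FC of CDK6 was 0.10 (95% interval 0.01 to 0.19, adjusted p-value 0.0629), and it became 0.143 (adjusted p-value 0.000465) without control replicate 1 and 0.135 (adjusted p-value 0.0193) without PELP1-KD replicate 2. Without control replicate 3 it was 0.0524 (adjusted p-value 0.342), so single replicates moved it in both directions. The counts on CDK6 per 100 counts on CDK4 were 77.6 ± 4.03 (SD, n = 3) in control and 87.0 ± 4.48 (SD, n = 3) in PELP1-KD cells (two-sided exact permutation test, p = 0.2).

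CDK2, the kinase of the E-type cyclins, had 171.6, 164.7 and 172.7 CPM in the control group, against 172.6, 169.2 and 176.7 CPM under PELP1-KD. The groups overlapped, and the log2FC of 0.03 had a 95% interval of -0.05 to 0.10 (adjusted p-value 0.551). In the annotation, CDK4 overlaps TSPAN31, CDK2 overlaps PMEL, CCNE2 overlaps INTS8, CCND1 overlaps LTO1 by 1399 bases and CCND3 overlaps the non-coding gene AL513008.1 by 1330 bases, each on the opposite strand. The setting for strand in the authors' counting is not given in the sources used here. The part of reads from such partners was not tested.

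CDKN1A rose most among the members. The gene lies on chromosome 6 (GRCh38 36676460 to 36687339, plus strand), and its annotated span overlaps the non-coding gene DINOL on the opposite strand by 951 bases. In the control its CPM was 64.98, 71.29 and 66.8, and under PELP1-KD it was 106.3, 113.6 and 109.3. The lowest PELP1-KD value was well above the highest control value. CDKN1A rose from a mean of 67.7 ± 3.25 CPM (SD, n = 3) to 109.7 ± 3.63 CPM (SD, n = 3), with a log2FC of 0.69 or 1.62-fold (SE 0.047, adjusted p-value 1.78e-10). Its log2FC ranked 522 from the highest of all tested genes.

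CDKN1B, the other inhibitor of this family, had 44.47, 41.23 and 45.79 CPM in the control group, against 41.81, 36.47 and 41.93 CPM under PELP1-KD. The groups overlapped, and its log2FC was -0.13 (95% interval -0.26 to 0.0056, adjusted p-value 0.108). For every 100 counts on CDKN1B, the counts on CDKN1A were 155 ± 15.5 (SD, n = 3) in control and 275.5 ± 31.3 (SD, n = 3) in PELP1-KD cells, without overlap (two-sided exact permutation test, p = 0.1). Against its target kinase, there were 39.9 ± 2.93 (SD, n = 3) counts on CDKN1A per 100 counts on CDK2 in control cells and 63.5 ± 3.13 (SD, n = 3) in PELP1-KD cells (two-sided exact permutation test, p = 0.1). CDKN1A rose while CDKN1B and CDK2 were not called, so both ratios restate that rise and add no separate evidence.

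**Figure D3:**
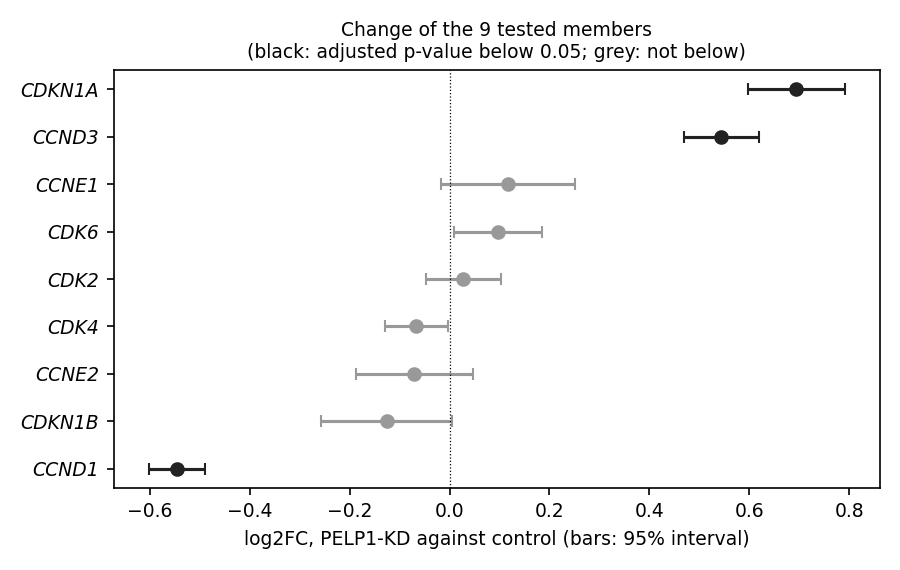
The log2FC of the 9 tested members with their 95% intervals from edgeR's quasi-likelihood test, in black where the adjusted p-value was below 0.05. CDKN1A and CCND3 stand to the right of 0, CCND1 to the left, and the other 6 members lie between -0.13 and 0.12.

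Ordered by RPKM over the union of exons in control cells, CCND1 (131) was first, followed by CDK4 (102), CDK2 (43.6), CCND3 (34.6), CCNE2 (23.2), CDKN1A (22.2), CDK6 (20.4), CDKN1B (15.6), CCNE1 (10.3) and CCND2 (0.087). Among neighbors in this order, the replicates of CCNE2 and CDKN1A overlapped, as did those of CDKN1A and CDK6, and no other pair did. In PELP1-KD cells, CDK4 (97.0) was above CCND1 (89.8), and CCND3 (50.4) was above CDK2 (44.4), in each case without overlap, while CCNE2 (22.1) and CDK6 (21.8) overlapped. With the longest transcript as length, CDK4 was already above CCND1 in control cells, and CCND3 was above CDK2 in both groups. Reads that aligned more than once were not counted, and processed pseudogenes are annotated for CCND2, CCND3 and CDK4. The part of such reads in this order and in the share of CCND3 was not tested.

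The genes whose expression followed a member most closely were found by Pearson's correlation of log2 CPM over the 6 samples, which largely reflects the difference between the groups. For CCND1 these were VAMP3 (r = 0.99989), MKRN1 (r = 0.99962) and DUSP6 (r = 0.99935), with a log2FC of -0.59, -0.43 and -0.43. For CCND3 they were RDH13 (r = 0.99875), IFNGR2 (r = 0.99864) and ZNF699 (r = 0.99848), with a log2FC of 0.44, 0.40 and 0.68.

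The rest of the machinery of the first gap phase was described by 9 lists. Over their 136 genes, 132 were tested, of which 25 (18.9%) were higher and 43 (32.6%) were lower, against 22.7% and 24.2% of all tested genes, with a median log2FC of -0.03. With libraries scaled by their totals alone, 33 were higher and 33 lower, where 3817 of all genes were higher and 2418 lower.

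Of 5 other CDK inhibitors, 3 were tested. The INK4 genes CDKN2A and CDKN2B, which lie side by side on chromosome 9 and are deleted in many cancer cell lines, were almost without reads. CDKN2A had 1 count in PELP1-KD replicate 2 and 0 in the other 5 replicates, and CDKN2B had 0 in every replicate, where 3 counts over a group would be 0.0523 CPM in control and 0.0466 CPM in PELP1-KD cells. CDKN2D, which also inhibits the kinases of D-type cyclins, rose from a mean of 41.8 ± 1.80 CPM (SD, n = 3) to 46.3 ± 1.59 CPM (SD, n = 3), with a log2FC of 0.15 (SE 0.055, adjusted p-value 0.0311). Its call was lost in DESeq2, with an adjusted p-value of 0.0625, and without control replicate 1 or 2 or PELP1-KD replicate 2 or 3, with adjusted p-values between 0.0639 and 0.115. CDKN2C had a log2FC of 0.07 (adjusted p-value 0.351) and CDKN1C, which encodes the third member of the CDKN1A family, 0.08 (adjusted p-value 0.696).

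The listed genes of growth arrest and the DNA damage response, which were chosen as targets of p53, moved both ways beside CDKN1A. Of 19 tested, 5 (26.3%) were higher, 5 (26.3%) were lower and 9 did not pass, with a median log2FC of 0.02. Of all tested genes, 22.7% were higher and 24.2% lower. BTG2, an antiproliferative gene, rose by a log2FC of 0.90 (SE 0.15, adjusted p-value 6.35e-05) from 3.311, 2.684 and 2.196 CPM in control replicates to 5.182, 5.062 and 5.013 CPM in PELP1-KD replicates. AEN, a nuclease, fell by 0.64 on the log2 scale (SE 0.046, adjusted p-value 5.31e-10). MDM2, which encodes a ubiquitin ligase and was named after its values were seen, fell by 0.32 (SE 0.053, adjusted p-value 5.37e-05).

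Among 15 genes of the turnover of p27, p21 and cyclins, 5 (33.3%) were lower and 10 did not pass, with a median log2FC of -0.06. Of all tested genes, 24.2% were lower and 22.7% higher. CUL4A, a scaffold of the ubiquitin ligases that remove p21 during DNA synthesis, fell by 0.41 (SE 0.040, adjusted p-value 3.58e-08) from 138 to 104 CPM. SKP1, an adapter of the ligase that removes p27, fell by 0.30 (SE 0.034, adjusted p-value 2.70e-07), and CUL3 fell by 0.16 (SE 0.044, adjusted p-value 0.00469).

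Of the 9 genes that activate CDKs or set their inhibitory phosphorylation, 3 (33.3%) were higher and 2 (22.2%) were lower. Over all tested genes, these shares were 22.7% and 24.2%. The phosphatase genes CDC25C and CDC25A rose by a log2FC of 0.24 (SE 0.057, adjusted p-value 0.00172) and 0.21 (SE 0.041, adjusted p-value 3.49e-04). The third of these phosphatase genes, CDC25B, which was named after its values were seen, fell by 0.14 (SE 0.042, adjusted p-value 0.00798), and its call was lost with library totals alone (adjusted p-value 0.0719) and without PELP1-KD replicate 3 (adjusted p-value 0.0693). MNAT1, the assembly factor of the CDK-activating kinase, fell by 0.30 (SE 0.051, adjusted p-value 5.19e-05), while the other subunits CDK7 and CCNH did not pass, at a log2FC of -0.09 for CDK7 (adjusted p-value 0.172) and -0.02 for CCNH (adjusted p-value 0.741).

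The substrate of the D-type kinases had the log2FC of largest size in its list, and it was negative. RB1 had 149.7, 136.3 and 131.6 CPM in the control group, against 82.75, 71.11 and 76.09 CPM under PELP1-KD. The groups stood far apart, and RB1 fell by 0.86 on the log2 scale (SE 0.054, adjusted p-value 6.80e-11). The related pocket proteins RBL1 and RBL2 did not pass, at a log2FC of -0.10 for RBL1 (adjusted p-value 0.104) and 0.04 for RBL2 (adjusted p-value 0.655). E2F1, the factor that RB1 holds in check, rose from a mean of 136 ± 2.33 CPM (SD, n = 3) to 175.5 ± 5.28 CPM (SD, n = 3), with a log2FC of 0.37 (SE 0.037, adjusted p-value 7.96e-08), and E2F8, a repressor, fell by 0.27 (SE 0.058, adjusted p-value 5.75e-04). The related repressor E2F7, named after its values were seen, rose by a log2FC of 0.14 (SE 0.044, adjusted p-value 0.0144), a call that was lost without control replicate 2 or 3 or PELP1-KD replicate 1 (adjusted p-values between 0.0601 and 0.0842). Over the 13 genes of this list, 4 (30.8%) were higher and 4 (30.8%) were lower, against 22.7% and 24.2% of all tested genes.

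The E2F-driven genes of S-phase entry were mixed as well, with 4 of 19 (21.1%) higher and 5 (26.3%) lower. These shares are close to the 22.7% and 24.2% of all tested genes, and the median log2FC was -0.04. MYBL2 rose by a log2FC of 0.49 (SE 0.037, adjusted p-value 9.27e-10), while POLA1, a subunit of DNA polymerase alpha, fell by 0.34 (SE 0.051, adjusted p-value 1.73e-05).

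Of 18 other cyclins, 9 (50%) were lower and 3 (16.7%) were higher, where 24.2% of all tested genes were lower and 22.7% higher, with a median log2FC of -0.105 against 0.0014 over all tested genes. CCNA1, a cyclin best known from the male germline, fell from a mean of 8.84 ± 0.813 CPM (SD, n = 3) to 4.38 ± 0.568 CPM (SD, n = 3), with a log2FC of -1.01 (SE 0.12, adjusted p-value 1.23e-06). CCNYL1 fell by 0.54 (SE 0.069, adjusted p-value 1.95e-06), and CCNT2, a cyclin of transcription elongation, fell by 0.37 (SE 0.063, adjusted p-value 5.72e-05). Of 16 other CDKs tested, 2 (12.5%) were higher and 3 (18.8%) were lower, against 22.7% and 24.2% of all tested genes. CDK18 rose by a log2FC of 1.78 (SE 0.32, adjusted p-value 1.09e-04) from 9, 5 and 13 counts in the control replicates to 36, 32 and 37 in the PELP1-KD replicates. CDK18 passed the low-count filter through the PELP1-KD group, in which it is high, and it was not tested when at least 10 counts were required in every replicate. Its log2FC was 1.35 without control replicate 2. CDK1, the kinase of mitosis, fell by 0.25 (SE 0.042, adjusted p-value 5.83e-05), and CDK12, a kinase of RNA polymerase II, fell by 0.24 (SE 0.037, adjusted p-value 2.00e-05). CDK3 was at 0 in every replicate.

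Of 20 transcription factors known to act on the member genes, 10 (50%) were lower and 3 (15%) were higher, where 24.2% of all tested genes were lower and 22.7% higher, with a median log2FC of -0.05. FOSL1, a subunit of AP-1, which can activate CCND1, had 275.1, 304.8 and 296.6 CPM in the control group, against 198.7, 205.5 and 203.9 CPM under PELP1-KD. Its groups did not overlap, and it fell by 0.53 (SE 0.037, adjusted p-value 4.03e-10). KLF4 and KLF6, zinc finger factors that can activate CDKN1A, fell by 0.49 (SE 0.096, adjusted p-value 2.88e-04) and 0.34 (SE 0.033, adjusted p-value 6.66e-08). SP1, which binds GC boxes and was named after its values were seen, fell by 0.28 (SE 0.047, adjusted p-value 7.44e-05). No test compared any of these lists with other genes.

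**Figure D4:**
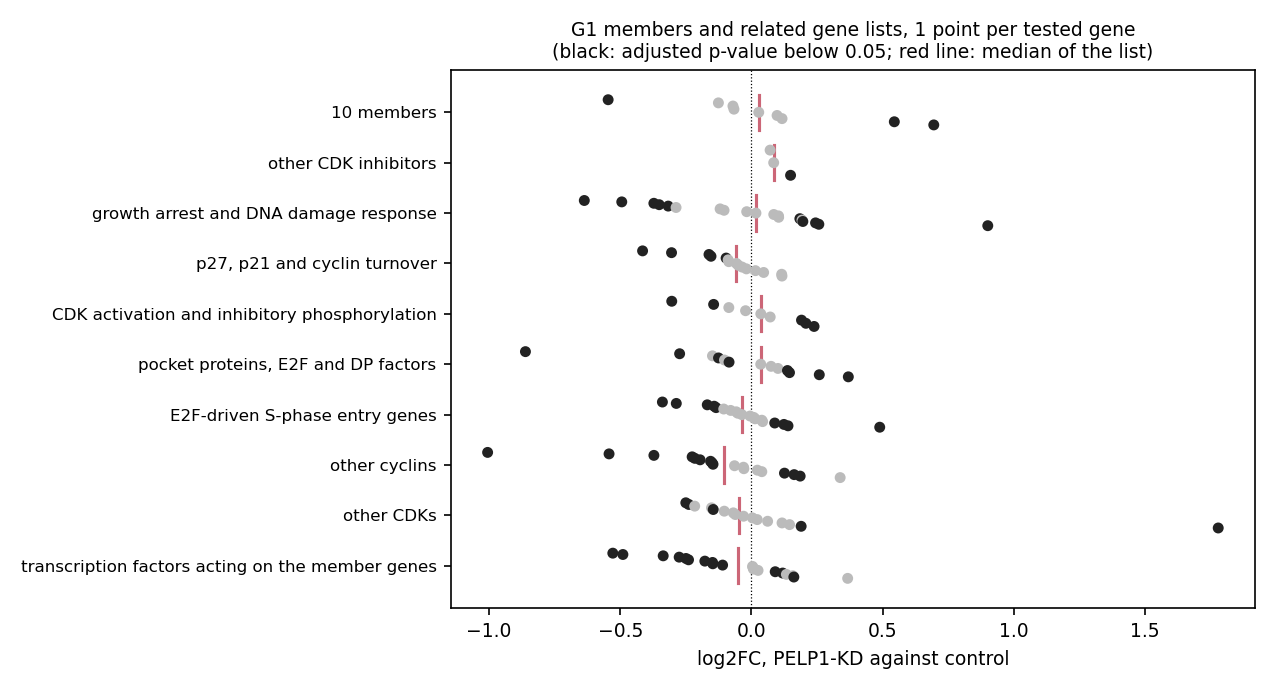
The log2FC of every tested gene of the members and of the 9 lists, with 1 point per gene (black, adjusted p-value below 0.05; grey, not below) and the median of each list as a red line. The medians lie between -0.105 and 0.0847, and the points at the far right and left are CDK18 at 1.78, a gene of low counts, and CCNA1 at -1.01.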

How the data were processed

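The authors sequenced stranded poly(A) libraries with single reads of 50 bases and deposited 1 table of read counts per gene symbol for each replicate, as whole numbers without normalization. Per the labels, bcl2fastq, TopHat2, SAMtools and HTSeq were used on hg19. Versions, gene annotation and strand setting are not given in the sources used here, and the study used DESeq2. Rows of reads on no gene were left out. Of all entries counted per replicate, 32.46% to 32.93% were alignments that were not unique, which need not equal a share of reads. Another 7.635% to 8.195% matched no feature and 0.6566% to 0.6879% were ambiguous.

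Genes passing edgeR's filterByExpr (minimum count 10) were tested by the quasi-likelihood test of edgeR 4.0.16 in R 4.3.3, with TMM scaling (0.978 to 0.987 in control, 1.016 to 1.018 in PELP1-KD replicates) and no covariate. SE was taken as the size of log2FC over the root of F, and log2 CPM used a prior count of 2. Lengths and coordinates are from GENCODE 29 on GRCh38, not from the count tables. Scripts were tested on simulated data. Alternatives were RLE scaling, library totals, DESeq2 1.42.0, voom in limma 3.58.1, other low-count filters, a replicate block, leaving out each replicate, and transcript length. Members and lists were chosen with earlier results of these data known. Named genes are the members, PELP1, and up to 3 genes per list with an adjusted p-value below 0.05 and the largest size of log2FC. Also named are every CDK inhibitor and pocket protein, listed genes at 0 in every replicate, and the 3 genes most correlated with each of the 2 members of lowest p-value. Others, such as the neighboring subunits of a complex, were named after their values were seen. A few genes that this rule names are not reported here. Proteomics was not analysed here.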

Additional observations from a re-analysis of the deposited data

How the results depend on the processing

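CCND1, CCND3 and CDKN1A kept their direction and an adjusted p-value below 0.05 in all 13 alternatives, with a log2FC between -0.555 and -0.496 for CCND1, between 0.506 and 0.593 for CCND3 and between 0.665 and 0.744 for CDKN1A. With library totals alone, 4 members were called higher, adding CCNE1 at 0.17 (adjusted p-value 0.0405) and CDK6 at 0.15 (adjusted p-value 0.00598), and the median log2FC of all tested genes became 0.0507. Without a filter on low counts, CDK6 passed at 0.0976 (adjusted p-value 0.0183) and 2 members were called lower, because CCND2 was then tested. CCNH, which was not called, was 0.0271 with library totals alone. The median log2FC of all tested genes was -0.00387 with at least 10 counts in every replicate, where CDK18 was not tested. The members, PELP1 and the called list genes kept their sign wherever they were tested.

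Replicate numbers are shared by the groups. Across genes, a control and a PELP1-KD replicate of like number deviated from their means with correlations of 0.0388, 0.0653 and -0.0784, so no pairing was assumed. With the replicate number as a block, 3 members were called higher and 2 lower, as CDK6 passed at 0.0980 (adjusted p-value 0.0152) and CDKN1B at -0.131 (adjusted p-value 0.0411), and 27 listed genes were higher and 44 lower. On leaving out single replicates, between 2 and 3 members were called higher and between 1 and 2 lower, and the log2FC of CDK6 lay between 0.0524 and 0.143, of CCNE2 between -0.135 and -0.00428, of CDKN1B between -0.173 and -0.0612 and of CDK2 between 0.004 and 0.0445. Genes that were not called changed sign, with CCNH between -0.0597 and 0.0199, RBL2 between -0.0292 and 0.0722 and CDKN1C between -0.0487 and 0.224. The added lower call was that of CCND2, which passed the filter through the control group, where it is high, once a group held 2 replicates, so the added call follows from the filter. It was called when control replicate 3 or any 1 of the PELP1-KD replicates was left out. The share of CCND3 in the D-type RPKM moved to 36.3% in control and 54.8% in PELP1-KD cells with transcript lengths. Of 441 values of the 34 named list genes that could be tested under an alternative, 417 kept their direction and their side of the threshold, and the others were those of CDKN2D, MYC, E2F7, CDC25B, RBL1, CCNH, RBL2 and CDKN1C. Low counts limit what can be said of CCND2, CDKN2A and CDKN2B.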
